A study of Mus musculus with 48 samples.

Results

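The genes described here are 10 markers of adipose progenitors and fibroblasts, taken by symbol from the 55471 genes counted in every library: Pdgfra, Pdgfrb, Dpp4, Pi16, Ly6a, Fap, Dcn, Lum, Lox and Fn1. All 10 were found and all 10 passed the low-count filter in every comparison. They were followed through 48 mouse mRNA libraries, 30 from epididymal white adipose tissue (eWAT, the visceral fat pad beside the epididymis) and 18 from cells that the labels describe as F4/80+, CD11b+ and CD64+ macrophages of that tissue. In eWAT the groups were WT animals on control diet (7 libraries), animals labelled as carrying an adipose-specific TXNIP knockout (AKO) on control diet (7), WT on ketogenic diet (8) and AKO on ketogenic diet (8). The macrophage-labelled groups held 6 WT and 6 AKO libraries on control diet and 3 WT and 3 AKO libraries on ketogenic diet. The labels used here name no strain, age, sex, diet composition, time on diet, Cre driver or deleted exon, and do not say which libraries came from separate animals, so p-values measure the spread between libraries, which may be technical. The title prefixes form 4 library sets, 1 per tissue and diet, so a difference between diets cannot be told apart from one between sets.

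Adipose stroma holds mesenchymal cells that keep the fat pad supplied with adipocyte precursors and lay down its matrix. Pdgfra and Pdgfrb encode the tyrosine kinase receptors for platelet-derived growth factors, the first used to mark fibroblasts and fibro-adipogenic progenitors and the second shared by progenitors and the mural cells of vessels. Dpp4, a cell-surface dipeptidyl peptidase, and Pi16, a peptidase inhibitor, mark early progenitors of the interstitial matrix, and Ly6a encodes the surface antigen Sca-1, which endothelial and lymphoid cells also carry. Fap encodes a serine protease of activated fibroblasts, Dcn and Lum encode small leucine-rich proteoglycans that bind collagen fibrils, Lox encodes the enzyme that starts collagen and elastin cross-linking, and Fn1 encodes fibronectin, which macrophages and other cells also make. Bulk libraries give a share of RNA, so fewer cells of a type and less RNA per cell cannot be told apart.

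Promoter sequences are shown for the receptor gene Pdgfra and the early-progenitor genes Dpp4 and Pi16. The other members, Lox among them, are not shown, which does not mean that they lack a promoter window. RefSeq promoter windows were used for 3 of the 10 genes. Each runs from 250 bases before the start site to 50 bases from it on (build GRCm38.p6). They lie at chr5:75152001-75152300 on the plus strand for Pdgfra, at chr2:62412182-62412481 on the minus strand for Dpp4 and at chr17:29318632-29318931 on the plus strand for Pi16. The Pi16 window lies inside the gene as annotated in GENCODE vM21 (chr17:29317680-29330593), so the 2 sources place its start differently. Capitals mark matches on either strand to 4 motifs: TATAAA, known as the TATA box, CCAAT, a promoter box named by its letters, GGAATG, the TEAD core (CATTCC on the other strand), and CAGAC, the SMAD half-site (GTCTG on the other strand).
Pdgfra: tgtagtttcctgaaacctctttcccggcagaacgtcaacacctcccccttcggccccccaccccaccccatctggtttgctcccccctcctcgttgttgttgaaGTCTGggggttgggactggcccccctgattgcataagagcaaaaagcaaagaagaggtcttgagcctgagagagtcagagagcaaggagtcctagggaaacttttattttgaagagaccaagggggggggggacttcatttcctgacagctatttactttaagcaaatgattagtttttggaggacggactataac
Dpp4: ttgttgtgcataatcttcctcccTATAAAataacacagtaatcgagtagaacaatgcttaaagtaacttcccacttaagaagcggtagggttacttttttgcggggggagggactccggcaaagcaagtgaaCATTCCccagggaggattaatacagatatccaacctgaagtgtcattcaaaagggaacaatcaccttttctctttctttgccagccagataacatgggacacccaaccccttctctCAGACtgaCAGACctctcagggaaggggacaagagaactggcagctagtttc
Pi16: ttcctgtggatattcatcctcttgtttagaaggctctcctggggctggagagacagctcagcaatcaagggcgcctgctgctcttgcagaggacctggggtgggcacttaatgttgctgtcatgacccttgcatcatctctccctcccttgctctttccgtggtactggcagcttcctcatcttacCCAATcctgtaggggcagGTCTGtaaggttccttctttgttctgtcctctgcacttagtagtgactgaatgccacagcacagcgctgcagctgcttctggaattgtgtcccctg
All 3 windows held the SMAD half-site, at −146 in Pdgfra, at −2 and 7 in Dpp4 and at −46 in Pi16, positions being those of the first base of the match. Dpp4 also held the TATA box at −227 and the TEAD core at −118, and Pi16 held the CCAAT box at −64. No 2 of these matches overlap. Of 32851 promoter windows of the same length, 49.6% held the SMAD half-site, 37.4% the CCAAT box, 14.7% the TEAD core and 13.6% the TATA box. A match describes letters in the window and not a site in use.

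The libraries held 17.4 to 59.8 M gene counts each in eWAT and 36.9 to 59.7 M in the macrophage-labelled set. In eWAT depth differed by diet. WT-labelled libraries held 34.7 to 59.8 M on control diet and 17.4 to 25.1 M on ketogenic diet. AKO-labelled libraries held 35.1 to 51.7 M and 21.0 to 39.0 M. Txnip, the gene named in the knockout label, was not lower in libraries labelled AKO: in eWAT on control diet it ran from 1508.3 to 1980.3 CPM (counts per M after TMM scaling) with the WT label and from 2185.4 to 3016.5 CPM with the AKO label (log2 fold change 0.69 ± 0.09 SE, edgeR adjusted p = 8.5e-04). Whole-gene counts do not show which exons the reads came from, so they do not check the deletion. The predicted gene Gm11868, whose use as a check comes from earlier results of these data, lay between 0.492 and 1.32 CPM in all eWAT libraries labelled WT and between 3.51 and 6.54 CPM in all labelled AKO. It went against the label in 4 of the 6 macrophage-labelled ketogenic libraries (WT replicates 1 and 2 and AKO replicates 2 and 3), and in no library of the other groups. Results that rest on those 4 are given below with and without them.

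The macrophage-labelled libraries also went against their cell type label. The macrophage genes Adgre1, Itgam, Fcgr1, Csf1r, Cd68 and C1qa, of which the first 3 encode the antigens named in the sort, had 0.243 to 0.732 times the mean CPM of whole eWAT in the WT control-diet groups, where Adgre1 averaged 29.6 ± 21.3 CPM (SD, n = 6) against 74.8 ± 9.78 CPM (SD, n = 7). All 5 endothelial markers and 6 of 7 mural cell markers were higher on average than in whole eWAT, with median ratios of 7.31 and 3.66. All 6 adipocyte markers were lower in each macrophage-labelled library than in any eWAT library. The kits differed between tissues, so these ratios were not tested. In the following, these libraries are called macrophage-labelled, and their values are not given as those of macrophages.

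**Figure D1:**
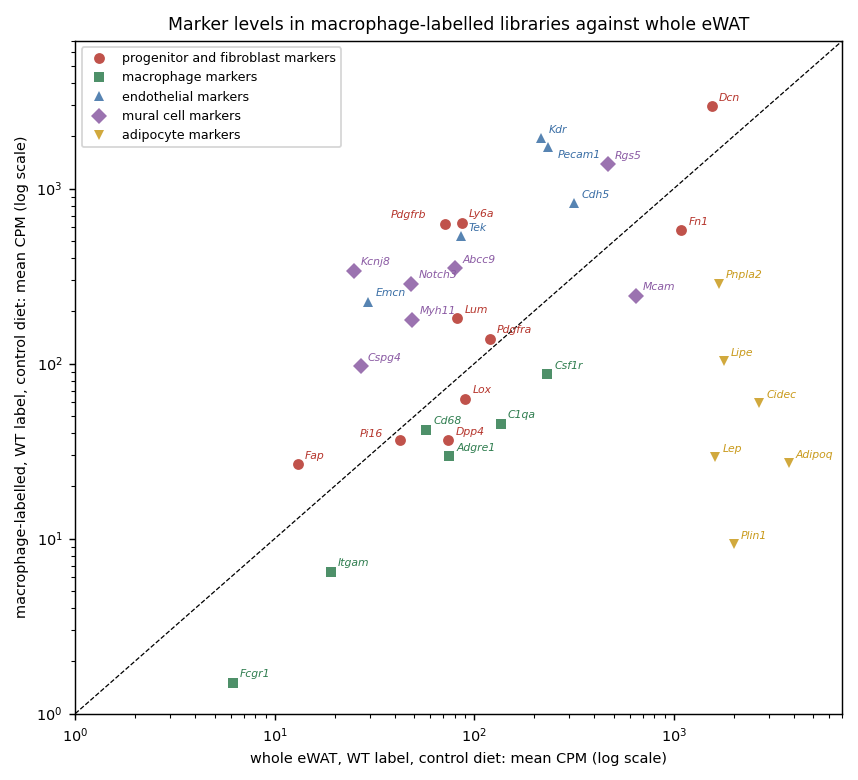
Mean CPM in macrophage-labelled libraries (vertical axis, log scale, n = 6) against whole eWAT (horizontal axis, log scale, n = 7), both WT label on control diet, 1 point per marker gene, with the dashed line at equal levels. Pdgfrb and Ly6a lie near the endothelial and mural markers above the line, while the 6 macrophage markers lie below it.

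Per kilobase of exon, Dcn was the most abundant of the 10 in eWAT, with a median of 235.9 CPM per kb over the 30 libraries and a range from 138.5 to 351.7. Fn1 followed at a median of 84.6 CPM per kb, Ly6a at 68.7, Lum at 40.2 and Lox at 23.5. Pdgfrb (12.1), Pdgfra (10.9) and Dpp4 (10.8) lay within each other's spread, and Pi16 (5.89) and Fap (2.44) were lowest. In the WT control-diet group the order by mean was the same. In the macrophage-labelled libraries the order differed: Ly6a led at a median of 485.9 CPM per kb, ahead of Dcn at 394.9 and Pdgfrb at 131.0, and Pi16 was lowest at 3.61.

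The first comparison asks whether the genotype label went with the stromal markers in eWAT. On control diet it did not pass the test for any of them: 0 of 10 were called by edgeR (adjusted p under 0.05), where 16.0% of all 16746 genes tested were. At an unadjusted p under 0.05 were 0 members and 5387 genes, and DESeq2's Wald test called 0 members and 3747 genes. Pdgfra ran from 102.3 through a median of 108.3 to 156.1 CPM with the WT label and from 105.6 through 126.0 to 135.7 CPM with the AKO label. Dcn ran from 1238.1 through 1504.9 to 1847.4 CPM with the WT label and from 1280.6 through 1705.4 to 2053.5 CPM with the AKO label. The groups overlapped for every member. Log2 fold changes lay between −0.06 (Fn1) and 0.15 (Dcn), with adjusted p from 0.36 to 0.94. All 95% intervals included 0 but differed in width. That of Pdgfra ran from −0.17 to 0.23, and that of Pi16, from −0.48 to 0.55, allowed larger changes of either direction. Pdgfrb alone changed its call with an offset for GC content, at a log2 fold change of 0.26 ± 0.06 (adjusted p = 0.013).

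On ketogenic diet 0 of 10 members were called by edgeR as well, against 3.36% of 15225 genes, with 3 at an unadjusted p under 0.05 (2872 of all genes) and 1, Pi16, called by DESeq2's Wald test (adjusted p = 0.017), which called 1041 genes. Pi16 ran from 18.6 through a median of 28.0 to 37.9 CPM with the WT label and from 19.4 through 42.1 to 70.7 CPM with the AKO label. In 5 of 8 AKO libraries Pi16 was above every WT library, while the lowest AKO library lay near the bottom of the WT range. The log2 fold change was 0.67 ± 0.21 (1.59-fold, 95% interval 0.23 to 1.11, edgeR adjusted p = 0.085). Fn1 ran from 542.7 through 801.1 to 1116.1 CPM with the WT label and from 598.6 through 1151.3 to 2377.9 CPM with the AKO label, where 4 of 8 libraries exceeded every WT library (log2 fold change 0.64 ± 0.23, adjusted p = 0.14). Dpp4 ran from 36.5 through 57.8 to 78.1 CPM with the WT label and from 55.9 through 70.3 to 101.7 CPM with the AKO label (0.41 ± 0.17, adjusted p = 0.19). Without AKO ketogenic replicate 5 both Pi16 (0.78 ± 0.17, adjusted p = 0.020) and Fn1 (0.75 ± 0.20, adjusted p = 0.050) passed. The remaining 7 members had log2 fold changes from −0.15 (Fap) to 0.34 (Lum), with adjusted p from 0.37 to 0.79. With the replicate number as a block, whose pairing rule was not met, edgeR called 3 members and 1586 genes. These members were Dpp4 (adjusted p = 0.029), Lum (0.33 ± 0.09, adjusted p = 0.038) and Pi16 (adjusted p = 0.044). The summed mesothelial markers, cells of the fat pad's outer lining, had a mean of 224.9 CPM with the WT label and 324.6 CPM with the AKO label on this diet, and the summed macrophage markers 299.7 and 384.7 CPM; their part in the values of Pi16, Fn1 and Dpp4 was not tested.

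**Figure D2:**
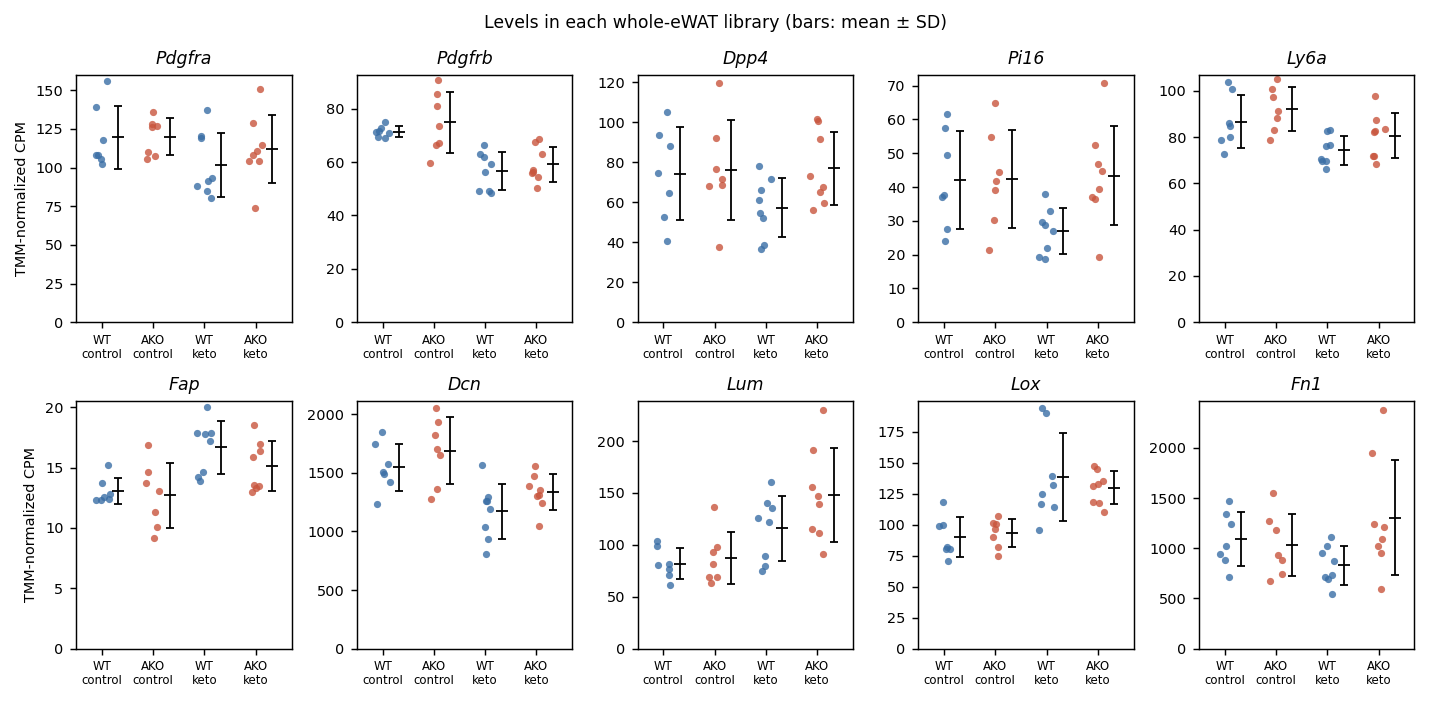
TMM-normalized CPM of the 10 markers in each of the 30 whole-eWAT libraries (points, WT label blue and AKO label red, by diet), with the mean ± SD of each group in black; each vertical axis starts at 0. Lox and Lum sit higher on ketogenic diet under both labels, and Pi16, Dpp4 and Fn1 spread upward in the AKO ketogenic group.

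Between diets the members moved in different directions. With the WT label 5 of 10 were called, 3 higher on ketogenic diet (Lox, Lum and Fap) and 2 lower (Pdgfrb and Pi16), where 53.8% of all 15569 genes tested were called, 26.8% higher and 27.0% lower. With the AKO label 4 of 10 were called, Lum and Lox higher and Pdgfrb and Dcn lower, where 39.5% of 16483 genes were called, 19.8% higher and 19.7% lower. These shares are near the background, so the counts say nothing particular about the set.

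Lox, the collagen cross-linking enzyme, was the member that passed under both labels and in every setting run, each with 1 library left out included. With the WT label it ran from 70.7 through a median of 81.9 to 118.3 CPM on control diet and from 95.7 through 128.2 to 193.8 CPM on ketogenic diet (log2 fold change 0.73 ± 0.15, 1.66-fold, edgeR adjusted p = 6.8e-04). All 8 ketogenic libraries were above the control-diet median and 5 were above every control-diet library. With the AKO label Lox ran from 74.9 through 96.8 to 106.7 CPM on control diet and from 110.5 through 132.2 to 147.0 CPM on ketogenic diet, so that these groups did not overlap (0.52 ± 0.08, 1.43-fold, adjusted p = 6.3e-05).

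Lum, the collagen-binding proteoglycan lumican, was higher on ketogenic diet under both labels. With the WT label it ran from 60.8 through a median of 80.5 to 104.1 CPM on control diet and from 74.9 through 124.0 to 160.3 CPM on ketogenic diet (log2 fold change 0.62 ± 0.16, adjusted p = 0.0048). With the AKO label it ran from 62.7 through 81.8 to 136.4 CPM and from 91.4 through 143.2 to 230.3 CPM (0.80 ± 0.19, 1.74-fold, adjusted p = 0.0033). In each case 5 of 8 ketogenic libraries were above every control-diet library. With the GC offset Lum stayed called with the AKO label (0.67) and not with the WT label (0.34 ± 0.17, adjusted p = 0.11). Dcn, the related proteoglycan whose gene lies next to Lum, had lower values instead: with the AKO label it ran from 1280.6 through 1705.4 to 2053.5 CPM on control diet and from 1050.1 through 1331.5 to 1561.9 CPM on ketogenic diet (−0.30 ± 0.10, adjusted p = 0.029). All 8 ketogenic libraries were below the control-diet median of Dcn. Under the WT label Dcn ran from 808.6 through 1227.6 to 1567.9 CPM on ketogenic diet and did not pass (−0.29 ± 0.12, adjusted p = 0.057). With the GC offset Dcn passed under both labels, at −0.67 (WT) and −0.52 (AKO), while without any one of 4 libraries its AKO call was lost (AKO control-diet replicates 2, 4 and 5 and AKO ketogenic replicate 3, adjusted p up to 0.064).

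Fap, the fibroblast serine protease, ran from 12.3 through a median of 12.6 to 15.2 CPM on control diet and from 13.9 through 17.5 to 20.0 CPM on ketogenic diet with the WT label (log2 fold change 0.47 ± 0.08, 1.39-fold, edgeR adjusted p = 1.1e-04). All 8 ketogenic libraries were above the control-diet median. Under the AKO label Fap ran from 9.19 through 13.1 to 16.9 CPM and from 13.0 through 14.8 to 18.5 CPM and did not pass (0.30 ± 0.12, adjusted p = 0.052). With the GC offset the WT value of Fap fell to 0.14 (adjusted p = 0.17) and the AKO value to 0.12.

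Pdgfrb, the receptor shared with mural cells, was lower on ketogenic diet. In libraries labelled WT, it ran from 69.1 through a median of 71.2 to 75.0 CPM on control diet and from 48.3 through 57.9 to 66.3 CPM on ketogenic diet, without overlap in CPM scaled over all eWAT libraries (log2 fold change −0.22 ± 0.07, adjusted p = 0.010). The fit scaled these groups on their own, and whether they overlap on that scale was not tested. In libraries labelled AKO, Pdgfrb ran from 59.6 through 73.6 to 90.7 CPM and from 50.3 through 56.8 to 68.8 CPM (−0.30 ± 0.08, adjusted p = 0.0097). With the GC offset the WT value of Pdgfrb turned to 0.04 (adjusted p = 0.67), while the AKO value stayed called at −0.19 (adjusted p = 0.036). The other receptor, Pdgfra, ran from 80.6 through 92.4 to 137.0 CPM (WT) and from 73.6 through 109.5 to 150.6 CPM (AKO) on ketogenic diet and did not pass under either label (−0.12 ± 0.12 and −0.06 ± 0.11). Of the 4 PDGF ligand genes, Pdgfa and Pdgfd were called higher on ketogenic diet under both labels (Pdgfa 0.45 ± 0.10 with the WT label and 0.71 ± 0.10 with the AKO label), and Pdgfc was called lower with the AKO label (−0.22 ± 0.07). With the GC offset only 1 ligand gene passed under each label. Of all genes, 53.8% (WT label) and 39.5% (AKO label) were called between diets without that offset.

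Among the progenitor surface markers, Pi16 ran from 24.0 through a median of 37.8 to 61.6 CPM on control diet with the WT label and was lower on ketogenic diet (log2 fold change −0.52 ± 0.20, edgeR adjusted p = 0.042). The groups overlapped, and this call was lost in 4 of 7 other settings and without any one of 10 of the 15 libraries (adjusted p up to 0.098); the GC offset gave −0.25. Among AKO-labelled libraries Pi16 had a log2 fold change of 0.08 ± 0.23 (adjusted p = 0.82). Dpp4 had −0.26 ± 0.21 (WT) and 0.05 ± 0.19 (AKO), Ly6a had −0.10 ± 0.07 and −0.16 ± 0.08, and Fn1 had −0.28 ± 0.16 and 0.38 ± 0.25, none of which passed. The GC content of the exons runs from 37.4% in Dcn to 54.9% in Pdgfrb and Pi16, and the within-group values of Pdgfrb and Pi16 had Pearson correlations of 0.50 and 0.46 with each library's slope of expression on GC content. Both diets' libraries come from separate sets, so the part of GC content in these changes was not tested beyond that offset.

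**Figure D3:**
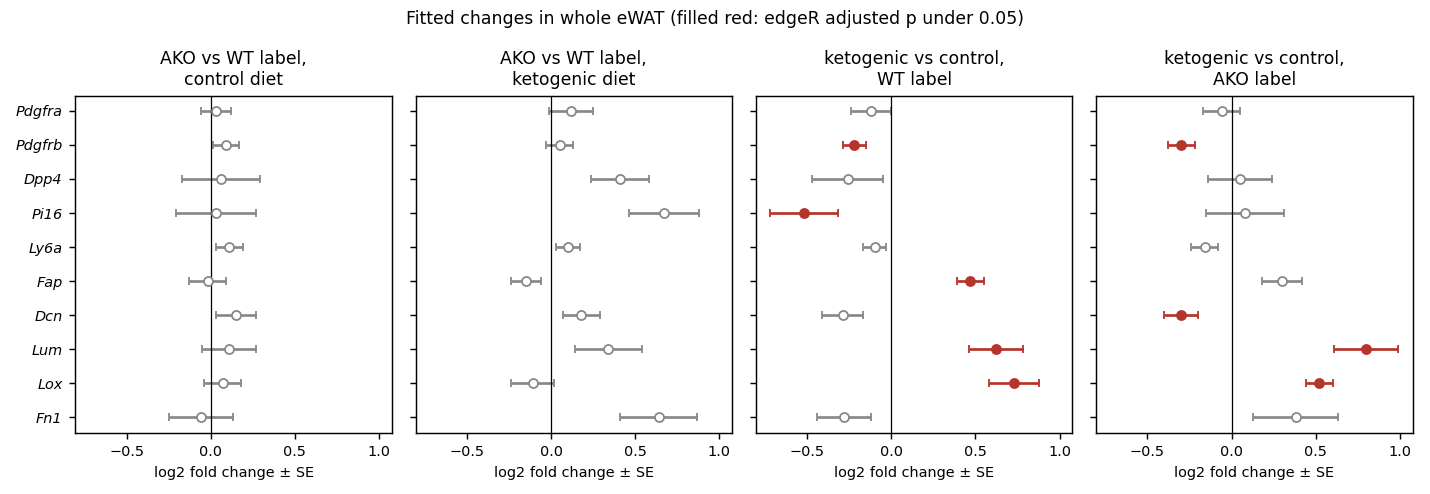
Fitted log2 fold changes ± SE of the 10 markers in whole eWAT, 1 panel per comparison, with filled red points for an edgeR adjusted p under 0.05. No member is called between genotype labels, and Lox, Lum and Pdgfrb are called between diets under both labels.

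Whether the diet difference itself differed between labels was tested in 1 fit of the 4 eWAT groups. edgeR called 0 of 10 members, where 8.31% of 17140 genes were called. An unadjusted p under 0.05 was found for 1 member and 3959 genes, and DESeq2's Wald test called 0 members and 1984 genes. Fn1 came closest, with a difference of log2 fold changes (AKO minus WT) of 0.70 ± 0.31 (95% interval 0.06 to 1.34, adjusted p = 0.17), followed by Pi16 at 0.64 ± 0.33 (−0.04 to 1.31, adjusted p = 0.25). For Pdgfrb the difference was −0.04 ± 0.11 (−0.27 to 0.19), and for Lox −0.17 ± 0.18 (−0.53 to 0.18). That Pi16 and Fap passed with the WT label alone, and Dcn with the AKO label alone, was thus not shown to be a difference between labels.

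Markers of other cell types moved in the same comparisons, where 53.8% (WT label) and 39.5% (AKO label) of all genes were called between diets and 8.31% in the interaction. Of 6 macrophage markers, 5 were called lower on ketogenic diet with the WT label and 2 with the AKO label, with median log2 fold changes of −0.62 and −0.32. Of 8 mesothelial markers 4 and 0 were lower (medians −0.68 and −0.13), and of 5 endothelial markers 4 and 0 were higher (0.34 and −0.01). Under the GC offset 2 mesothelial markers were lower and 3 endothelial markers higher with the WT label, and 1 endothelial marker was lower with the AKO label. Of the macrophage markers, 4 were lower with the WT label under that offset. The interaction called 0 of 8 mesothelial markers and 2 of 5 endothelial markers, both with a negative difference (1 under the GC offset). It also called 1 of 6 macrophage markers (list median 0.42) and 1 of 6 adipocyte markers with a positive difference, and 1 of 7 mural cell markers with a negative one. The mural cell list, of which Pdgfrb is also a marker, had 2 higher and 2 lower of 7 with the WT label and 1 higher and 2 lower with the AKO label. The median of all genes was −0.015 with the WT label and −0.023 with the AKO label. Summed adipocyte markers averaged 13521.1 CPM (WT control), 11394.0 CPM (AKO control), 11114.7 CPM (WT ketogenic) and 9840.8 CPM (AKO ketogenic). The part of these shifts in the members' values was not tested.

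Matrix genes outside the set were read from lists chosen with earlier results known. Of all genes tested, edgeR called 16.0% between labels on control diet and 3.36% on ketogenic diet. Between diets it called 53.8% (WT label) and 39.5% (AKO label), and in the interaction 8.31%. The diet counts below for proteoglycans, progenitor genes and, with the WT label, lysyl oxidase genes are near or under these shares. They say nothing particular about those lists. Of 6 fibrillar collagens, 5 were called lower with the AKO label on control diet (median log2 fold change −0.56), led by Col5a3 (−0.87 ± 0.18), Col5a1 (−0.63 ± 0.18) and Col1a1 (−0.61 ± 0.19), while the GC offset left 1 called and a median of −0.28. In the same comparison 4 of 5 endothelial markers were called higher (median 0.29; 4 with the GC offset) and 3 of 6 adipocyte markers lower (median −0.33; 2 with the GC offset), and their part in the collagen values was not tested. Lox, Lum, Dcn and Fn1 had values between −0.06 and 0.15 in that comparison, and the median of all genes was 0.015. Between diets all 6 collagens were called higher on ketogenic diet with the AKO label (median 0.77, and 0.79 with the GC offset), with Col5a3 at 1.12 ± 0.13, and 0 of 6 with the WT label (median 0.12, and 2 higher with the GC offset; 0 by edgeR on DESeq2 size factors). The interaction called 1 of 6 collagens higher (median difference 0.72), and 0 with the GC offset (0.33). In the other lysyl oxidase genes, 3 of 4 were higher with the AKO label, among them Loxl2 (0.61 ± 0.19) and Loxl1 (0.50 ± 0.15), and with the WT label Loxl1 (−0.55 ± 0.19) and Loxl3 (−0.36 ± 0.12) were lower, which the GC offset did not keep (1 higher, 0 lower). Of 6 other small leucine-rich proteoglycans, 2 were called higher and 2 lower with the WT label (median −0.10) and 1 higher and 2 lower with the AKO label (−0.06). Aspn was higher (1.25 ± 0.18 with the WT label and 1.03 ± 0.17 with the AKO label), and Podn (−1.51 ± 0.14 and −1.26 ± 0.13) and Fmod (−0.96 ± 0.31 and −0.70 ± 0.20) were lower. Of 7 further interstitial progenitor genes, Sema3c was higher on ketogenic diet under both labels (0.45 ± 0.13 and 0.53 ± 0.10) and Bmp7 lower with the WT label (−0.95 ± 0.23). The GC offset left 0 of the 7 higher and 2 lower with the WT label, so the Sema3c call was lost there. Between genotype labels Anxa3 was higher with the AKO label on ketogenic diet (0.33 ± 0.09, adjusted p = 0.048).

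The members did not vary as 1 block among the 30 eWAT libraries. After each group's mean was subtracted, the 45 pairs had Pearson correlations from −0.27 to 0.86 with a median of 0.44, and 18 pairs were above 0.5. Lum and Fn1 were most alike (0.86), followed by Fap with Lum and Pdgfra with Dcn (0.72 each) and Pdgfra with Pi16 and Pi16 with Fn1 (0.71 each). Dcn stood apart from its neighbour Lum (0.03), and Dcn with Fap had the lowest value (−0.27). Lum, Pdgfrb, Fn1 and Lox went with the summed fibrillar collagens (0.79, 0.76, 0.73 and 0.70), and Dcn did not (−0.06). Dpp4 followed the summed mesothelial markers at 0.95, above its correlation with any other member (highest 0.66, with Fn1), and these markers spread from 104.8 to 708.3 CPM over the libraries. Ly6a was closest to the summed macrophage markers (0.71). These values are descriptions over libraries that share depth, GC slope and tissue makeup.

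**Figure D4:**
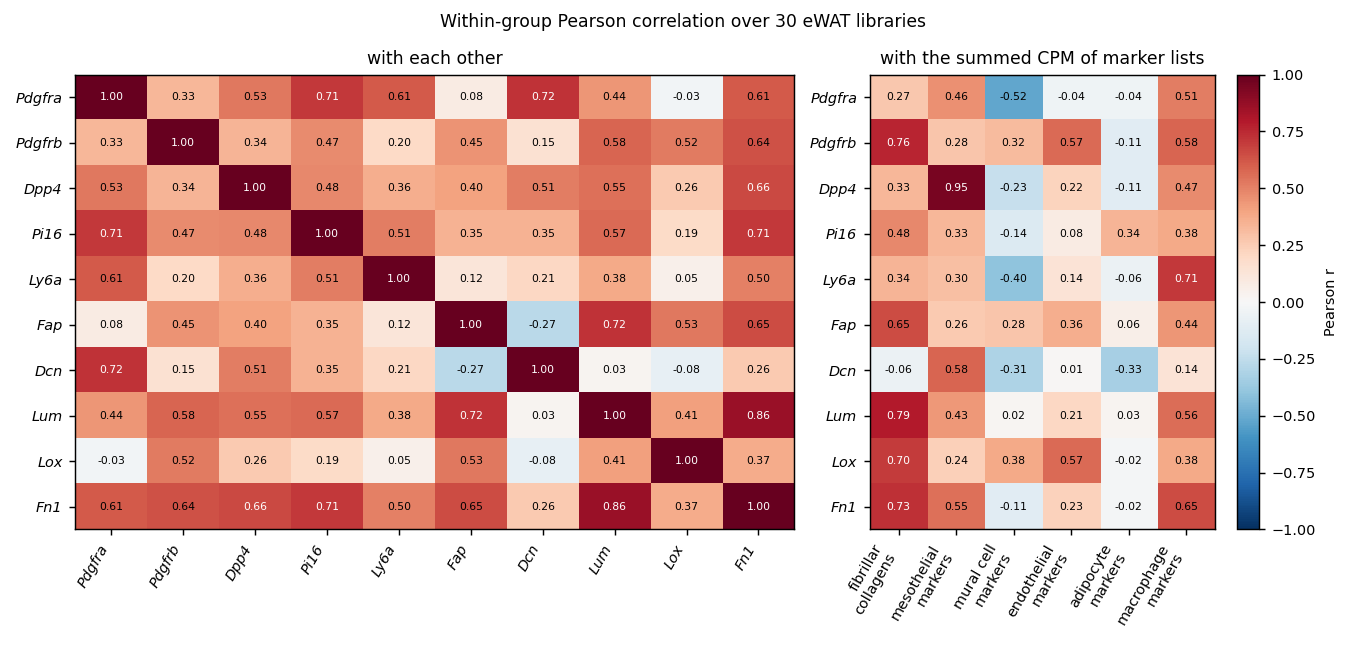
Pearson correlations over 30 eWAT libraries of log2 CPM after subtraction of group means, among the 10 markers (left) and with the summed CPM of marker lists (right), on a color scale from −1 (blue) to 1 (red). Lum and Fn1 reach 0.86, Dcn and Fap −0.27, and Dpp4 with mesothelial markers 0.95.

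Of 12512 genes ranked by likeness over the same 30 libraries, those nearest to the mean pattern of Pdgfra, Dpp4 and Pi16 were Antxr1 (Pearson r = 0.94), Gfpt2 (0.92), Timp2, Nbl1 and Cadm3 (0.91 each). Nearest to the mean pattern of Dcn and Lum were Timp2 (0.93), Ces2g (0.90), Scrn1 (0.88), Cd34 and Nynrin (0.87 each). Dcn and Lum had a correlation of 0.03 with each other, so this mean is a composite and not a pattern that they share. Timp2 encodes a tissue inhibitor of metalloproteinases, and Cd34 a surface antigen of progenitors and vessels. Timp2 was the gene that stood in both lists.

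In the macrophage-labelled libraries all 10 members were detected in every library. Pdgfrb ran from 395.2 to 822.7 CPM and Ly6a from 447.1 to 795.7 CPM, each above every eWAT library (highest 90.7 and 105.1 CPM), and the other 8 members overlapped with eWAT. In the WT control-diet groups the ratio of means was 8.81 for Pdgfrb and 7.35 for Ly6a, between 1.16 and 2.22 for Pdgfra, Dcn, Fap and Lum, and between 0.492 and 0.863 for Dpp4, Fn1, Lox and Pi16. Over 12689 genes at a mean of at least 1 CPM in both groups the median ratio was 1.10. No test was made across the kits.

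Pi16, Dpp4 and Fn1 spread widely in these libraries. Among WT-labelled libraries on control diet Pi16 ran from 17.5 through a median of 27.6 to 83.3 CPM, and Dpp4 from 10.7 through 28.4 to 72.9 CPM. Fn1 ran from 214.2 through 535.4 to 1224.0 CPM in the same 6 libraries. For all 3 genes the highest was WT control-diet replicate 4. The summed mesothelial markers, which Dpp4 followed in eWAT (Pearson r = 0.95), ran from 43.8 to 365.2 CPM in this group. Their part in this spread was not tested.

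Between genotype labels in these libraries edgeR called 0 of 10 members on control diet, against 0.0820% of 17067 genes (14), with 2 members and 1701 genes at an unadjusted p under 0.05 and 0 members and 115 genes called by DESeq2. Those 2 were Pi16 (−0.93 ± 0.41, adjusted p = 0.49) and Dcn (−0.39 ± 0.17, adjusted p = 0.49). Pi16 with the AKO label ran from 10.1 through 14.7 to 39.2 CPM, overlapping the WT group. On ketogenic diet 0 of 10 members were called, and 0% of 17067 genes, with 520 genes and 0 members at an unadjusted p under 0.05 and 15 genes and 0 members by DESeq2's Wald test. Without the 4 libraries of doubtful label 1 library was left under each label, and in a fit of all 4 groups, which assumes that a lone library varies like the other groups, 0 members were called. The label-by-diet interaction likewise had 0 of 10 members and 0% of 18566 genes called, with 726 genes and 0 members at an unadjusted p under 0.05 and 17 genes and 0 members by DESeq2's Wald test, and without those 4 libraries it called 0 members and 0 genes.

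Between diets 0 of 10 members passed with the WT label, against 3.52% of 17687 genes. There 1 member and 4239 genes had an unadjusted p under 0.05, and DESeq2's Wald test called 0 members and 1777 genes. Without WT ketogenic replicates 1 and 2, the libraries of doubtful label, 0 members and 5 genes were called. For the AKO label 1 of 10 passed, Ly6a, against 20.3% of 17693 genes. Ly6a ran from 531.2 through 636.1 to 678.7 CPM on control diet and stood at 545.3, 447.1 and 495.7 CPM on ketogenic diet (−0.32 ± 0.09, edgeR adjusted p = 0.027). Of these ketogenic libraries, 2 of 3 were below every control-diet library. For the WT label Ly6a stood at 504.5, 516.9 and 513.3 CPM on ketogenic diet, below all 6 control-diet libraries (580.9 to 795.7 CPM), and did not pass (−0.33 ± 0.12, adjusted p = 0.14). Without the libraries of doubtful label the AKO call was lost; without AKO control-diet replicate 5, AKO ketogenic replicate 2 or AKO ketogenic replicate 3 it was lost as well (adjusted p up to 0.12).

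Because the doubtful labels concern genotype and not diet, the diets were also compared with both labels together, a comparison chosen after the data were seen. It called 2 of 10 members, 1 higher and 1 lower, where 30.4% of 17573 genes were called, 14.3% higher and 16.1% lower. Ly6a was lower on ketogenic diet (−0.32 ± 0.08, 95% interval −0.48 to −0.17, edgeR adjusted p = 0.0036), with 5 of 6 ketogenic libraries below all 12 control-diet libraries. Lox was higher (0.60 ± 0.17, 1.51-fold, 95% interval 0.25 to 0.95, adjusted p = 0.012). Lox stood at 100.9, 100.6 and 86.7 CPM in the ketogenic libraries labelled WT and at 99.1, 70.6 and 117.1 CPM in those labelled AKO, against 27.1 to 93.8 CPM and 43.9 to 72.4 CPM on control diet. All 6 were above the control-diet median and 4 were above every control-diet library. Both calls were kept under 4 other settings of normalization, test, filter and GC content and in all 18 fits with 1 library left out. Without the 4 libraries of doubtful label, which left 2 on ketogenic diet, neither passed: Ly6a had −0.24 ± 0.12 (adjusted p = 0.30) and Lox 0.56 ± 0.26 (adjusted p = 0.26), and 856 genes were called. The macrophage markers were lower in the same comparison, 6 of 6 called with a median of −0.74; the summed level ran from 145.2 to 333.7 CPM on control diet and from 115.3 to 185.8 CPM on ketogenic diet. Of the other lists, 3 of 7 mural cell markers were lower (median 0.00), 3 of 6 adipocyte markers higher and 1 lower (0.40), 3 of 4 T cell markers higher (1.19), and 1 of 5 endothelial markers higher and 1 lower (0.03). The part of these shifts in the values of Ly6a and Lox was not tested.

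**Figure D5:**
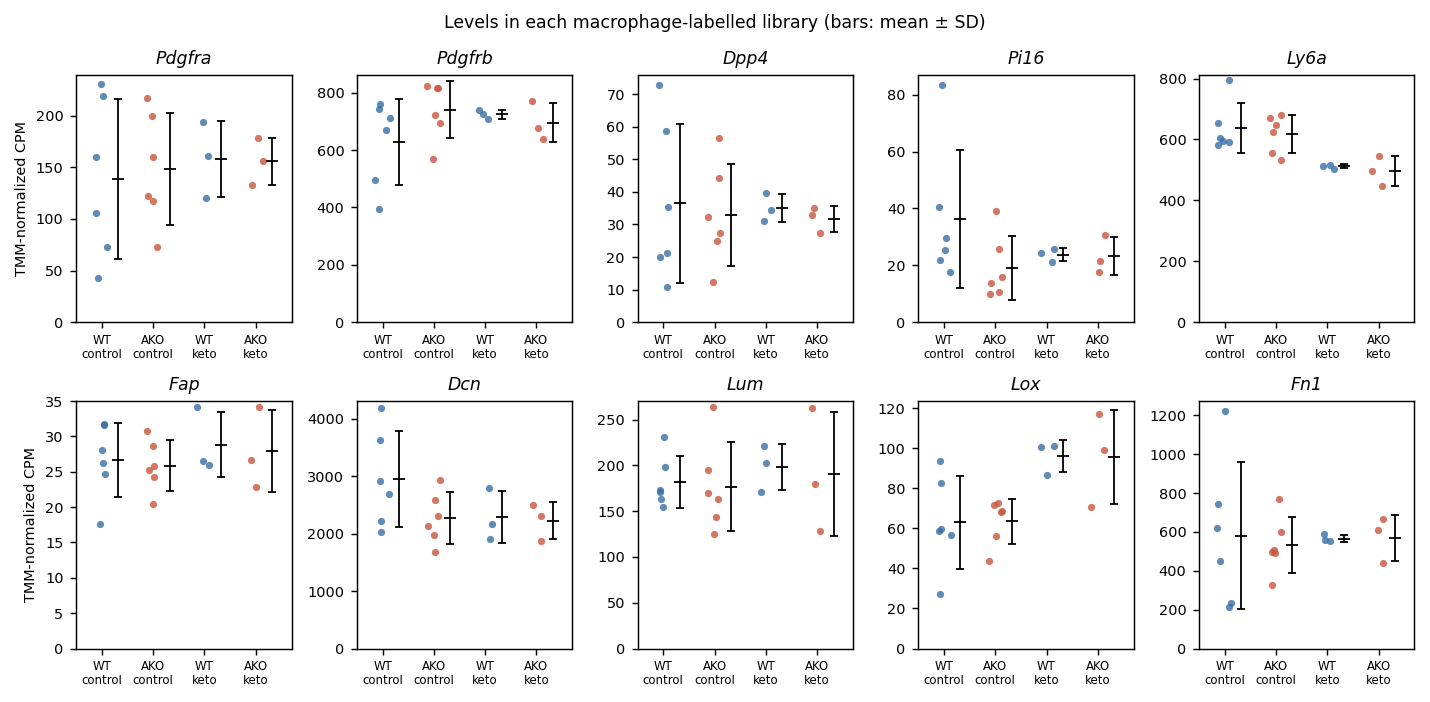
TMM-normalized CPM of the 10 markers in each of the 18 macrophage-labelled libraries (points, WT label blue and AKO label red, by diet), with the mean ± SD of each group in black; each vertical axis starts at 0. Ly6a is lower and Lox higher in the ketogenic groups, and Pi16, Dpp4 and Fn1 have 1 high library in the WT control-diet group.

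The genes lie on 7 chromosomes in the GENCODE vM21 annotation of GRCm38, which holds 54573 of the 55471 counted identifiers with their version. Pdgfra (ENSMUSG00000029231.15) spans chr5:75152292-75198215, Pdgfrb (ENSMUSG00000024620.11) chr18:61045150-61085061 and Ly6a (ENSMUSG00000075602.10) chr15:74994877-74998031. Dpp4 (ENSMUSG00000035000.8) spans chr2:62330073-62412231 and Fap (ENSMUSG00000000392.17), which encodes a related protease, chr2:62500943-62574075, with 88711 bases between them. Dcn (ENSMUSG00000019929.16) spans chr10:97479609-97518143 and Lum (ENSMUSG00000036446.5) chr10:97565128-97572703, with 46984 bases and no annotated gene between them. Pi16 (ENSMUSG00000024011.17) spans chr17:29317680-29330593, Lox (ENSMUSG00000024529.14) chr18:52516067-52529867 and Fn1 (ENSMUSG00000026193.15) chr1:71585520-71653200. Pdgfra, Dpp4, Pi16, Lox and Fn1 overlap an annotated gene on the opposite strand, whose reads cannot be told apart from theirs in the macrophage-labelled counts, which use no strand. Ly6a belongs to a gene family with near copies, so the split of reads among them is uncertain.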

How the data were processed

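Raw, unnormalized read counts per gene and library are what the authors deposited. The tools named are STAR 2.7.8a and Trim Galore 0.6.0, with the build mm10, per the submitters' processing notes. No source used here names the annotation release. For eWAT (stranded kit, per the labels' protocols) the column of reverse-stranded counts (the fourth) was used, and for the macrophage-labelled libraries (an ultra-low-input kit that marks no strand) the unstranded column. Rows for reads assigned to no gene (19.4% to 32.9% of the file totals) were left out. Identifiers were given symbols from GENCODE vM21 (55230 of 55471 genes).

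The 10 members and the 17 lists beside them were chosen with earlier results of these data known. Each comparison was fitted on all genes in R 4.3.3 with edgeR 4.0.16: filterByExpr, TMM, a robust quasi-likelihood fit, two-sided tests and Benjamini-Hochberg adjustment over all genes tested, called at an adjusted p under 0.05. Labels were compared within each diet and diets within each label, separately by tissue, and the interaction was taken over 4 groups. The comparisons of 1 tissue share libraries. CPM values use TMM factors over a tissue. Each fit computes TMM factors over its own libraries, so fitted changes can differ from ratios of the CPM values. The SE is the absolute log2 fold change divided by the square root of F, and intervals are 95%, from the t distribution on the fit's total degrees of freedom. The scripts were tested on simulated data. Every member is reported; of each list up to 3 called genes of the largest change at a mean of at least 2 CPM may be named, Txnip as the targeted gene and Gm11868 as a label check.

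Alternatives were DESeq2 1.42.0 (size factors, Wald test), no low-count filter, an offset for GC content (smooth with a span of 0.3), the unstranded column, 1 fit of all 4 groups, the replicate number as a block and leaving out each library. The numbers in the titles did not meet the rule for pairing (in no comparison did all pairs correlate above 0.1). The eWAT comparison of labels on ketogenic diet came close, with 7 of 8 pairs above 0.1 and the lowest at 0.09. No 2 libraries of a group were copies (lowest chi-square per degree of freedom 8.38, over genes with at least 30 counts in the pair). Total gene counts of 17.4 to 59.8 M limit counting error, and intervals cover the spread between libraries.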

Additional observations from a re-analysis of the deposited data

Results flagged for a closer look

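Within groups of 4 to 10 libraries, 60 sets of values (10 members in 6 groups) were searched for a library standing far from the rest, and 2 were found; chance alone would give about 1 in 20. Pi16 was at 83.3 CPM in macrophage-labelled WT control-diet replicate 4, where the nearest of the other 5 libraries was at 40.6 CPM and the lowest at 17.5 CPM. The same library had the highest Dpp4 and Fn1 of its group. Ly6a was at 795.7 CPM in macrophage-labelled WT control-diet replicate 2, where the other 5 libraries lay between 580.9 and 652.4 CPM. Replicate 2 had the lowest Dpp4 (10.7 CPM), Fn1 (214.2 CPM) and Lox (27.1 CPM) of the same group. It also had the highest share of reads assigned to no gene of all libraries (32.9%) and the fewest gene counts of the macrophage-labelled set (36.9 M). Leaving it out made the Ly6a difference between diets with the WT label pass, at a log2 fold change of −0.25 ± 0.06 (edgeR adjusted p = 0.036).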

How the results depend on the processing

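For the 10 members, Lox (both labels), Lum and Pdgfrb (AKO label) kept their eWAT diet calls in all 7 other settings and without each library in turn. The number of members called moved as follows, and the cause was not tested. The GC offset gave 1 between genotype labels in eWAT on control diet (0 as reported) and 2 between diets with the WT label (5 as reported), where it turned Pdgfrb to 0.04. On ketogenic diet the genotype comparison in eWAT (0 as reported) had 1 by the DESeq2 Wald test and 3 with the replicate block, whose pairing rule was not met (Dpp4, Pi16 and Lum), and the block ended the Dcn call between diets with the AKO label (adjusted p = 0.079). Leaving out each library in turn gave 0 to 2 there, 4 to 7 between diets with the WT label and 3 to 5 with the AKO label. In macrophage-labelled libraries the diet comparison with the WT label (0 as reported) had 1 in 1 fit of all 4 groups and 4 with the replicate block, which turned Dpp4 to 1.05 and Fn1 to 0.99, and 0 to 1 with a library left out. With the AKO label (1 as reported) it had 2 by the Wald test, 0 in 1 fit, 0 with the block, 0 without the libraries of doubtful label (chosen after seeing the data) and 0 to 1 with a library left out. With both labels together (2 as reported) it had 0 without the libraries of doubtful label. Over all genes the GC offset called 1230 in eWAT between labels on control diet (2677 as reported), 6312 between diets with the WT label (8373) and 256 in the interaction (1425), and the block called 1586 between labels on ketogenic diet (512). In macrophage-labelled libraries the diet comparisons called 623 (WT) and 3583 (AKO) as reported, 2937 and 1505 in 1 fit of all 4 groups, and 5 and 1044 without the libraries of doubtful label.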

Other observations

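Committed preadipocyte and regulatory stromal genes, a list of 9 beside the progenitor markers, had a summed mean of 1149.4 ± 180.0 CPM (SD, n = 7) in eWAT with the WT label and 917.4 ± 213.9 CPM (n = 7) with the AKO label on control diet, and 1232.2 ± 220.9 CPM and 1264.1 ± 85.3 CPM (n = 8 each) on ketogenic diet. Col15a1 alone made up 851.2 CPM of the first of these sums, and the median log2 fold change of the 9 between labels on control diet was −0.09. There 1 of 9, Col15a1, was called lower with the AKO label by edgeR (−0.62 ± 0.20, adjusted p = 0.047) and 0 with the GC offset (median −0.01), and on ketogenic diet 0 of the 8 tested were called. Of all genes, edgeR called 16.0% and 3.36% in these comparisons. The other small leucine-rich proteoglycans summed to 2287.0 CPM on average over the 30 eWAT libraries and 1156.1 CPM over the 18 macrophage-labelled ones, while the 10 progenitor and fibroblast markers summed to 3097.1 and 4828.6 CPM. Single genes weigh heavily in these sums. In the WT control-diet groups Prelp averaged 1252.3 CPM in eWAT and 282.7 CPM in macrophage-labelled libraries, Aspn 52.0 and 344.2 CPM, and Dcn 1547.2 and 2953.3 CPM. The kits differed between tissues, so the sums were not tested.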
